A study of Mus musculus with 12 samples.

Results

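The genes described here encode the proteasome and its immune variant, the immunoproteasome. They were taken by name as all genes whose symbol starts with Psma, Psmb, Psmc, Psmd, Psme, Psmf or Psmg. Of 54 such names, 4 pseudogenes and 1 gene listed at 0 in every library (Psmb11, the thymus form of a catalytic subunit) were dropped, which left 49 of 47643 genes. The immunoproteasome genes Psmb8, Psmb9, Psmb10, Psme1 and Psme2 form 5 of the 49 and are set beside the other 44. RNA was sequenced in bulk from spleen cells of C57BL/6 mice labelled as naive CD4 T cells, after activation for 3 days through CD3 and CD28 with plate-bound antibodies (2 μg/ml each). All 4 groups shared this activation. Tnfr2-/- cells, which lack TNF receptor 2, received TNF (20 ng/ml) with TGF-β (2 ng/ml). Wild-type (WT) cells received TNF+TGF-β at the same doses, IL-6 (20 ng/ml) with TGF-β (2 ng/ml), or no cytokine (Th0). Each group had 3 libraries, which the labels do not tie to separate mice or cultures, so p-values measure only the spread between these libraries, which may be technical. Neither Tnfr2-/- cells without cytokine nor cells given only TGF-β were analysed here, so the parts of TNF, IL-6 and TGF-β in a pair cannot be told apart, nor can a genotype effect that needs no cytokine.

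The 26S proteasome degrades proteins tagged with ubiquitin. Its 20S core is a barrel of outer α rings (Psma genes) and inner β rings (Psmb genes), in which Psmb5, Psmb6 and Psmb7 hold the catalytic sites. The 19S cap recognises and unfolds the substrate with a ring of ATPases (Psmc) and a set of other subunits (Psmd), and Psmg genes encode chaperones that help to assemble the core. Interferon-γ induces Psmb8, Psmb9 and Psmb10, which take the places of the constitutive catalytic subunits, and adds the 11S activator PA28αβ (Psme1 and Psme2). This immunoproteasome is abundant in lymphocytes and antigen-presenting cells and makes peptides suited to MHC class I. The transcription regulators IRF1 and NLRC5 are known to drive immunoproteasome and MHC class I genes, whereas NFE2L1 drives the standard subunits when proteasome activity drops.

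In GENCODE M21 (GRCm38), Psmb8 (chr17:34197721-34201454, plus strand) and Psmb9 (chr17:34181987-34187764, minus strand) lie in the MHC region. Psme1 (chr14:55578123-55581529, plus strand) and Psme2 (chr14:55587441-55591113, minus strand) are close neighbours, and Psmb10 lies apart (chr8:105935735-105938444, minus strand). Of the constitutive counterparts, Psmb5 is on chromosome 14 (54614119 to 54618022, minus strand), Psmb6 on chromosome 11 (70525367 to 70527858, plus strand) and Psmb7 on chromosome 2 (38588036 to 38644087, minus strand).

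Known motifs of interferon, NF-κB and antioxidant responses were searched in the 250 bases before the RefSeq start (GRCm38.p6) of each gene, on both strands, and 41 of the 49 genes had such a window. The stretches around the matches are shown because they are what the searched letters look like in the immune and in the standard genes, with the match in capitals, 5′ to 3′ on the gene's strand. The interferon-γ-activated site GAS (TTCNNNGAA) was found before 1 of the 5 immunoproteasome genes and before 1 assembly chaperone.
Psmb8 (chr17:34198088-34198116, plus strand): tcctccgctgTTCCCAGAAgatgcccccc
Psmg1 (chr16:95991185-95991210, minus strand): actcatgTTCTCTGAAtccgcttgca
The core of the antioxidant response element bound by NFE2L1 and NFE2L2 (TGACNNNGC) was found before 5 standard genes, among them 2 of the 3 constitutive catalytic subunits, and before 0 of the 5 immunoproteasome genes. Psmc6 and Psmd12 carry it on the other strand.
Psmb5 (chr14:54618024-54618052, minus strand): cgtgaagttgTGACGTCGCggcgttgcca
Psmb6 (chr11:70525338-70525366, plus strand): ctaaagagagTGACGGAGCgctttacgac
Psmc6 (chr14:45329587-45329615, plus strand): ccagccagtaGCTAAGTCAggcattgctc
Psmd9 (chr5:123228149-123228177, plus strand): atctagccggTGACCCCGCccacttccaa
Psmd12 (chr11:107479278-107479299, plus strand): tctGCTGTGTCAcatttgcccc
GAS occurred in 7.02% and the antioxidant core in 10.2% of all 32851 promoter windows, so these matches are descriptions of letters and not binding sites. The antioxidant core was found in 5 of the 41 genes with a window. With only 5 immunoproteasome genes, 0 matches cannot be told apart from a share of 10.2%. The RefSeq start used here can lie inside the gene as GENCODE M21 draws it. This holds for the stretches of Psmb8 (GENCODE start 34197721) and Psmd9 (123169413). The interferon-stimulated response element core (GAAA, any pair of bases and GAAA, in 2.98% of windows) was found before Psmb3, Psmd4 and Psmd9, and an NF-κB site (in 3.90% of windows) before Psmd12. None of the searched motifs was found in the windows of Psmb9, Psmb10, Psme1 and Psme2. Psmb9 lies head to head with Tap1, which encodes a subunit of the peptide transporter that feeds MHC class I. Their RefSeq start sites on chromosome 17 (34187330 for Psmb9 and 34187556 for Tap1) are 226 bases apart. In GENCODE M21 Psmb9 reaches to 34187764, beyond these RefSeq starts.

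Levels are FPKM, fragments scaled for transcript length and for the size of the library, and can therefore be compared between genes. Fold changes come from limma on log2(FPKM + 1) over 13082 tested genes. Calls need a Benjamini-Hochberg adjusted p under 0.05, adjusted over all of these genes, and log2 differences are given ± SE. Of the 49 members, 48 passed the filter of at least 1 FPKM in at least 3 libraries. The exception, the testis α subunit Psma8, did not exceed 0.23 FPKM in any library. Averaged over the 12 libraries, the highest members were Psma2 (670 FPKM), Psmb8 (587 FPKM), Psme2 (582 FPKM) and Psmb6 (555 FPKM), and the lowest tested one was Psme4 (13.1 FPKM), which encodes the activator PA200. The ranges of the highest members over the libraries overlapped, so their order is not fixed. Psmc3ip (20.9 FPKM) matches the naming rule but encodes a recombination cofactor and no proteasome subunit. Psme2b is a single-exon copy of Psme2 whose exon overlaps another gene on the same strand, so its value is uncertain. In all, 15 of the 49 members have exons that overlap another gene, and reads were not strand-specific. Among them are Psmb9, which overlaps Tap1 on the other strand, Psmb8 (Gm20496), Psme1 (Emc9), Psmb5 (Mir686) and Psmb7 (Nek6), so that reads from a shared stretch may belong to either gene.

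Estimated depth was 16800000 to 24000000 fragments per library, so that 3 fragments per kilobase correspond to 0.125 to 0.179 FPKM and all members but Psma8 lie well above that. Tnfrsf1b, the gene of the deleted receptor, averaged 3.92 ± 0.86 FPKM in Tnfr2-/- and 84.4 ± 20.6 FPKM in WT cells under the same cytokines (SD, n = 3 each), with an adjusted p of 1.17e-06 by limma. T cell markers were present in every library. The 7 markers summed to 1113 to 1664 FPKM in Tnfr2-/- TNF+TGF-β and 1672.5 to 1843 in WT TNF+TGF-β libraries. They summed to 1424 to 1607 FPKM in WT IL-6+TGF-β and 1967 to 2224 in Th0 libraries. Cd4 itself was below Cd8a in every library except the Tnfr2-/- one numbered 4. Markers of other cells were not at 0 and differed between groups: the 8 B cell markers summed to 1961 to 4297 FPKM in Tnfr2-/- TNF+TGF-β, 264 to 341 in WT TNF+TGF-β, 414 to 923 in WT IL-6+TGF-β and 767 to 1223 in Th0 libraries. The 6 dendritic cell and MHC class II markers summed to 16714 to 33244 FPKM in Tnfr2-/- TNF+TGF-β, 2555 to 3702 in WT TNF+TGF-β, 2458 to 5461 in WT IL-6+TGF-β and 6355 to 10331 in Th0 libraries. This sum was carried by Cd74, H2-Aa and H2-Ab1, while the dendritic cell marker Itgax averaged 0.63 ± 0.55 FPKM in Tnfr2-/- TNF+TGF-β, 2.57 ± 1.06 in WT TNF+TGF-β, 0.897 ± 0.778 in WT IL-6+TGF-β and 0.17 ± 0.11 in Th0 libraries (SD, n = 3 each). In bulk RNA, fewer cells of a type and less RNA per cell cannot be told apart. Replicate 1 of IL-6+TGF-β stood apart: 36 of the 41 standard members were highest of their group there, by a median of 0.48 on the log2 scale over the other libraries of the group. The Tnfr2-/- library numbered 4 had 34 of 41 at their lowest in its group, by a median of -0.30, and replicate 2 of WT TNF+TGF-β had 37 of 41, by a median of -0.22.

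**Figure D1:**
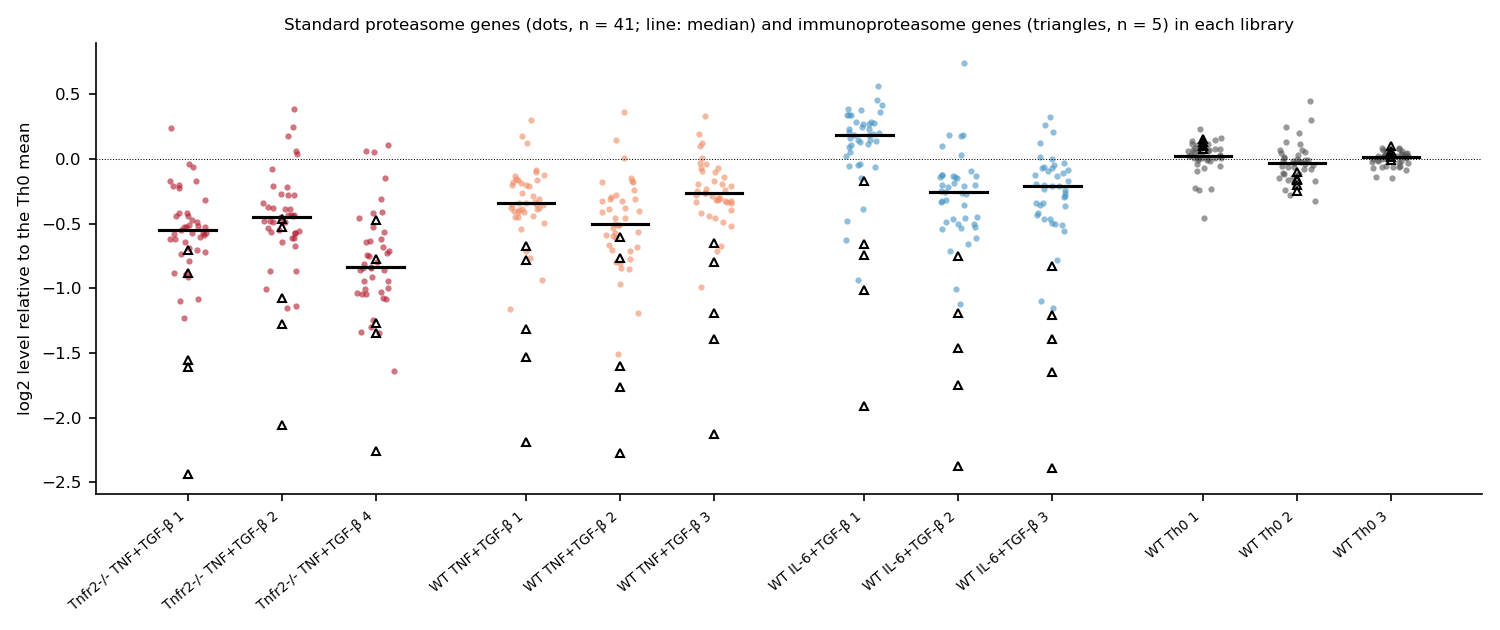
Level of each standard proteasome gene (dots, n = 41; line, their median) and of the 5 immunoproteasome genes (triangles) in each of the 12 libraries, as log2 relative to the Th0 mean of the same gene. Most dots of IL-6+TGF-β replicate 1 sit above those of the other libraries of its group and most of the Tnfr2-/- library numbered 4 below, while most triangles lie under the median line in all 9 cytokine libraries.

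The comparison of TNF+TGF-β with Th0 in WT cells asks which members this cytokine pair moved. The calls among the members ran downward. In all, 17 of the 48 tested were lower under these cytokines (35.4%, against 13% of all tested genes) and 0 were higher (against 18.7% of all tested genes). Under TPM scaling 1 member, Psmd10, was called higher, as were 3277 of all tested genes. The median log2 difference was -0.40 over the members and 0.07 over all tested genes. All 5 immunoproteasome genes fell, as did the 4 assembly chaperones of the core. Of the 6 ATPases of the 19S cap 0 were called, but all 6 differences lay below 0 (median -0.24). In 4 of these 6, all TNF+TGF-β libraries lay below all Th0 libraries. In 37 of 48 members all TNF+TGF-β libraries lay below all Th0 libraries, a separation seen in 23.2% of all tested genes, and in 2 members all lay above (against 31.9%). The 5 immunoproteasome genes, Psma7, Psmg1 and Psmg4 kept their call when any 1 of the 6 libraries was left out. The count of lower members depended on the setting, at 31 under median-ratio scaling and 34 when only these 2 groups were fitted. It was 8 without replicate 2 of TNF+TGF-β, 9 without Th0 replicate 1 and 11 without Th0 replicate 3. Over all tested genes the lower calls moved from 1703 to 2257, 2284, 1101, 1111 and 1106 in the same order.

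Psmb9, the β1i subunit that favours cleavage after hydrophobic residues in place of acidic ones, moved most. It had 81.7, 106 and 92.5 FPKM in the Tnfr2-/- TNF+TGF-β libraries, 97.1, 91.3 and 101 FPKM in WT TNF+TGF-β, 118, 85.4 and 84.2 FPKM in WT IL-6+TGF-β, and 489, 398 and 451 FPKM in Th0. The 9 cytokine libraries overlapped among themselves and all lay far below the Th0 libraries. Relative to Th0, Psmb9 was 4.57-fold lower with TNF+TGF-β (log2 difference -2.19 ± 0.15 SE, adjusted p = 8.47e-07 by limma, lower in 3 of 3 libraries). With IL-6+TGF-β the difference from Th0 was -2.22 ± 0.15, or 4.65-fold lower (adjusted p = 7.67e-07, limma).

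Psmb8, the β5i subunit, is the immune form of the chymotrypsin-like site. Its levels were 349.7, 508 and 444 FPKM in Tnfr2-/- TNF+TGF-β, 369, 315 and 408 FPKM in WT TNF+TGF-β, 639, 389 and 407 FPKM in WT IL-6+TGF-β, and 1151, 997 and 1065 FPKM in Th0. Every cytokine library lay below every Th0 library, and IL-6+TGF-β replicate 1 was the highest of the 9. The log2 difference from Th0 was -1.56 ± 0.20 with TNF+TGF-β (2.95-fold lower, adjusted p = 0.00011, limma) and -1.20 ± 0.20 with IL-6+TGF-β (2.29-fold lower, adjusted p = 0.000857, limma).

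Psmb10, the β2i subunit with trypsin-like activity, was the lowest of the immune catalytic genes and moved least. It had 73.5, 98.5 and 98.2 FPKM in Tnfr2-/- TNF+TGF-β, 79.0, 79.9 and 78.1 FPKM in WT TNF+TGF-β, 121, 80.5 and 76.5 FPKM in WT IL-6+TGF-β, and 144, 118 and 147 FPKM in Th0. The WT TNF+TGF-β libraries differed by less than 2 FPKM from each other and lay below all Th0 libraries, by -0.77 ± 0.18 on the log2 scale (adjusted p = 0.0063, limma). Replicate 1 of IL-6+TGF-β reached into the Th0 range, and the call for IL-6+TGF-β (-0.58 ± 0.18, adjusted p = 0.0349, limma) held in only 2 of 6 fits with 1 library left out (adjusted p up to 0.14 over all alternatives).

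Psme1 and Psme2 encode the subunits of PA28αβ, the ring that caps the core and eases peptide release. Psme1 had 404, 456 and 385 FPKM in Tnfr2-/- TNF+TGF-β, 412, 433 and 420.1 FPKM in WT TNF+TGF-β, 418, 289 and 284 FPKM in WT IL-6+TGF-β, and 707, 592 and 678 FPKM in Th0. For Psme2 the levels were 369, 447 and 428 FPKM in Tnfr2-/- TNF+TGF-β, 436, 358 and 475 FPKM in WT TNF+TGF-β, 539, 323 and 345 FPKM in WT IL-6+TGF-β, and 1210.0, 917 and 1134 FPKM in Th0. No cytokine library of either gene reached the Th0 range. With TNF+TGF-β the log2 differences from Th0 were -0.64 ± 0.15 for Psme1 (adjusted p = 0.00723, limma) and -1.36 ± 0.19 for Psme2 (adjusted p = 0.000285, limma). With IL-6+TGF-β they were -1.01 ± 0.15 for Psme1 (adjusted p = 0.000395, limma) and -1.46 ± 0.19 for Psme2 (adjusted p = 0.000174, limma).

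**Figure D2:**
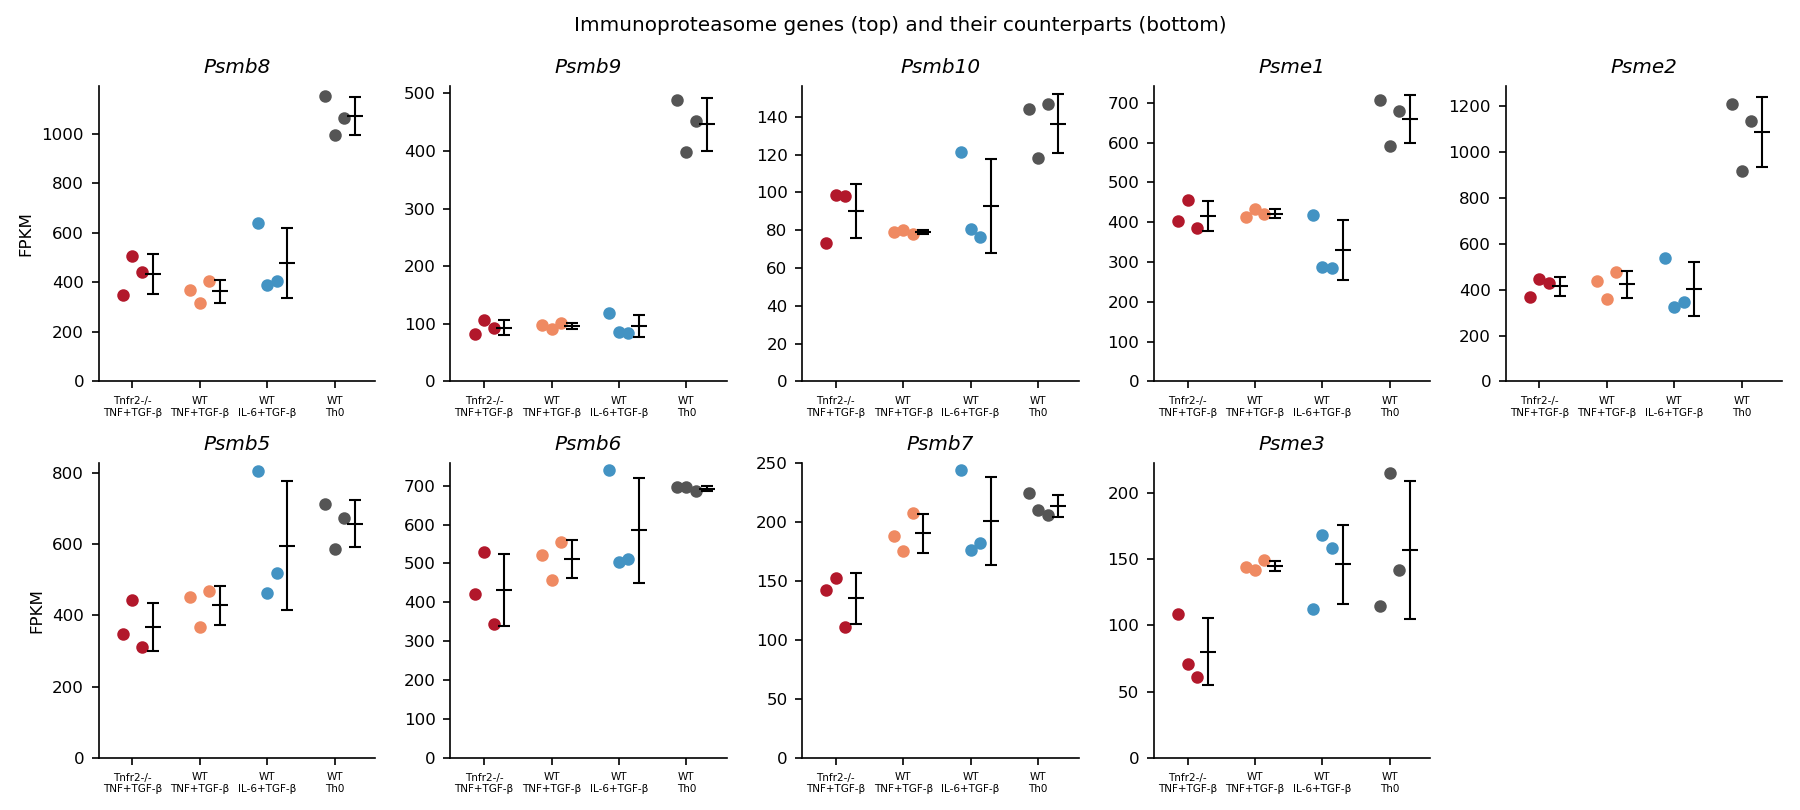
FPKM of the 5 immunoproteasome genes (top) and of their counterparts Psmb5, Psmb6, Psmb7 and Psme3 (bottom), with 1 dot per library and mean ± SD (n = 3) per group. The Th0 libraries of Psmb9 (398 to 489 FPKM) sit far above all other libraries (81.7 to 118 FPKM), whereas the bottom panels overlap more.

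Of the 3 constitutive counterparts only Psmb5 was called with TNF+TGF-β, and none with IL-6+TGF-β. Psmb5, which Psmb8 replaces, had 348, 441 and 309.9 FPKM in Tnfr2-/- TNF+TGF-β, 451, 366 and 467 FPKM in WT TNF+TGF-β, 803, 464 and 519.6 FPKM in WT IL-6+TGF-β, and 713, 584 and 674 FPKM in Th0. It was called lower with TNF+TGF-β (-0.62 ± 0.20, adjusted p = 0.0363, limma), a call kept in only 1 of 6 fits with 1 library left out. Psmb6, which Psmb9 replaces, had 420.5, 528 and 345 FPKM in Tnfr2-/- TNF+TGF-β, 521, 458 and 555 FPKM in WT TNF+TGF-β, 739.6, 504 and 512 FPKM in WT IL-6+TGF-β, and 696, 696 and 686 FPKM in Th0. Its TNF+TGF-β libraries lay below those of Th0 without passing the test (log2 difference -0.44 ± 0.18, adjusted p = 0.0795, limma). Psmb7, which Psmb10 replaces, had 143, 152 and 111 FPKM in Tnfr2-/- TNF+TGF-β, 188, 176 and 208 FPKM in WT TNF+TGF-β, 244, 177 and 182 FPKM in WT IL-6+TGF-β, and 225, 211 and 206 FPKM in Th0. The WT groups overlapped, and the log2 difference between TNF+TGF-β and Th0 was -0.17 ± 0.15 (adjusted p = 0.422, limma).

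A ratio of an immune gene to its counterpart within a library does not depend on the scaling between libraries. In Th0, Psmb8 exceeded Psmb5 in 3 of 3 libraries (ratio 1.58 to 1.71), whereas it was below Psmb5 in all WT libraries with TNF+TGF-β (0.818 to 0.872) and with IL-6+TGF-β (0.783 to 0.839). The log2 ratio of Psmb8 to Psmb5 was -0.23 ± 0.05 with TNF+TGF-β and 0.71 ± 0.06 in Th0 (SD, n = 3 each), a difference of -0.94. For Psmb9 to Psmb6 the log2 ratio was -2.39 ± 0.07 with TNF+TGF-β and -0.64 ± 0.15 in Th0, and for Psmb10 to Psmb7 it was -1.26 ± 0.14 with TNF+TGF-β and -0.65 ± 0.17 in Th0. With IL-6+TGF-β the log2 ratio was -0.31 ± 0.05 for Psmb8 to Psmb5, -2.59 ± 0.04 for Psmb9 to Psmb6 and -1.12 ± 0.12 for Psmb10 to Psmb7. The 3 catalytic ratios did not overlap between either cytokine pair and Th0. With 3 libraries against 3 the two-sided exact permutation test cannot give a p below 0.10, which it gave in these 6 cases (0.145 after Benjamini-Hochberg adjustment over 16 tests). Psme3, the gene of the nuclear activator PA28γ, had 109, 70.7 and 61.2 FPKM in Tnfr2-/- TNF+TGF-β, 144, 142 and 149 FPKM in WT TNF+TGF-β, 112, 168 and 158 FPKM in WT IL-6+TGF-β, and 114, 215 and 142 FPKM in Th0. Its WT groups overlapped, with log2 differences from Th0 of -0.06 ± 0.25 with TNF+TGF-β and -0.07 ± 0.25 with IL-6+TGF-β (adjusted p = 0.875 for each, limma). The ratio of PA28αβ to Psme3 differed by -0.98 on the log2 scale between TNF+TGF-β and Th0, without overlap (exact permutation p = 0.10). With IL-6+TGF-β it overlapped Th0 in replicate 1, whose linear ratio was 8.52 beside 3.64 and 3.98 in the other libraries of the group (exact permutation p = 0.20).

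**Figure D3:**
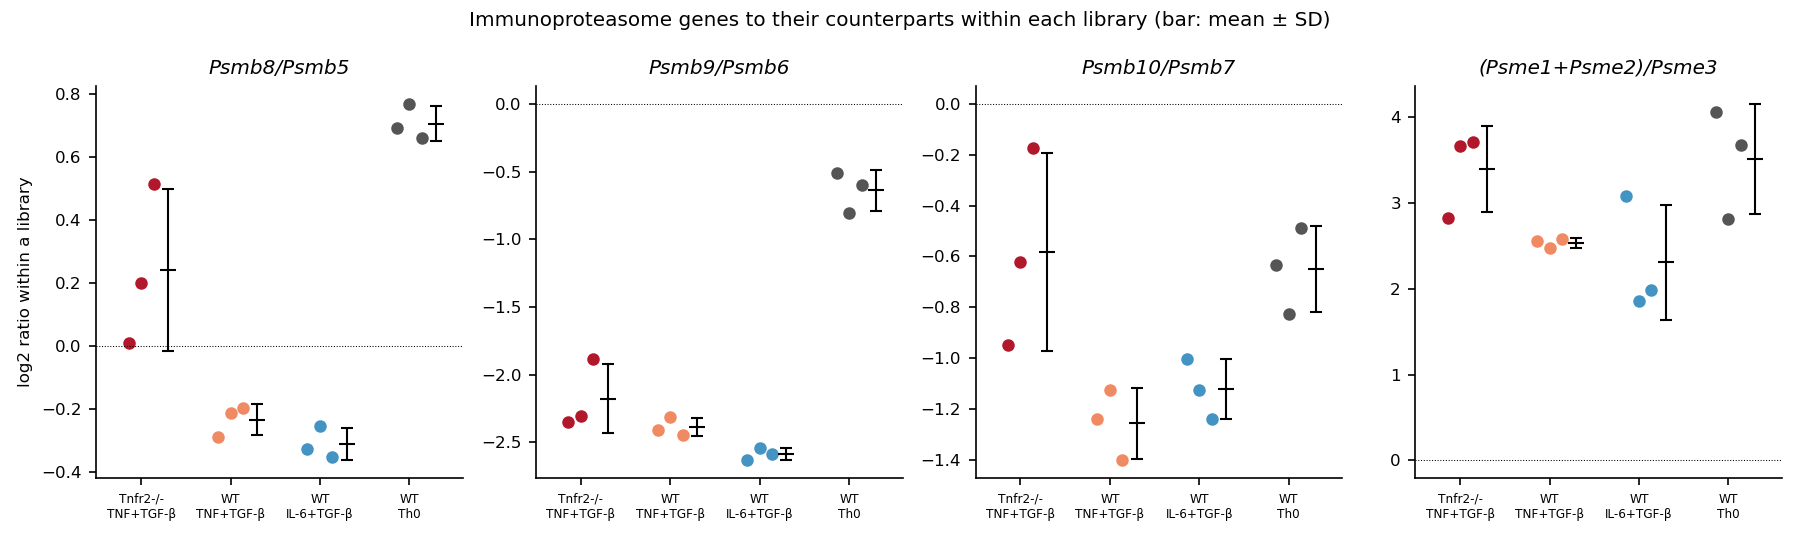
Log2 ratio of each immunoproteasome gene to its counterpart within each library (pseudocount 1), with 1 dot per library and mean ± SD (n = 3) per group. Both WT cytokine groups lie below Th0 for the 3 catalytic pairs, and the Tnfr2-/- libraries lie above the WT TNF+TGF-β libraries for Psmb8/Psmb5, Psmb10/Psmb7 and (Psme1+Psme2)/Psme3.

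Among the 41 standard members, 10 were called lower under TNF+TGF-β relative to Th0 (24.4%, against 13% of all tested genes). None was called higher (against 18.7%), and the median was -0.38 (against 0.07). Among the roles of the standard proteasome, the 4 assembly chaperones of the core had the lowest median (-0.81). Psmg4, part of the PAC3-PAC4 pair that helps to build the α ring, had 60.2, 47.1 and 68.0 FPKM in WT TNF+TGF-β and 141, 123 and 143 FPKM in Th0, so that the groups were far apart (-1.22 ± 0.17, adjusted p = 0.000279, limma). Psmg1, a member of the PAC1-PAC2 pair, had 72.1, 60.3 and 84.4 FPKM in WT TNF+TGF-β and 155, 114 and 147 FPKM in Th0 (-0.93 ± 0.21, adjusted p = 0.00528, limma). Psmg3 (-0.69 ± 0.19) and Psmg2 (-0.52 ± 0.17) were also called lower, but Psmg2 kept its call in 0 of 6 fits with 1 library left out.

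In the outer ring, 2 of 7 α subunits were called lower (28.6%, against 13% of all tested genes). Psma7, the α4 subunit, had 388, 336 and 411 FPKM in WT TNF+TGF-β and 661, 683 and 631 FPKM in Th0, with no overlap (-0.80 ± 0.17, adjusted p = 0.00372, limma). Psma3 was lower by a log2 difference of -0.58 ± 0.17 (adjusted p = 0.0209, limma). Of the 4 structural β subunits only Psmb2 was called (25%, against 13% of all tested genes), at -0.46 ± 0.16 (adjusted p = 0.0414, limma). In the 19S cap, 2 of 11 non-ATPase genes were called (18.2%, against 13% of all tested genes). These were Psmd7 (-0.54 ± 0.16) and Psmd12 (-0.39 ± 0.11), which encode lid subunits. The 6 ATPase genes, which encode the unfolding motor, lay between -0.37 and -0.17, and none of the 3 cap chaperones (Psmd5, Psmd9 and Psmd10), the inhibitor gene Psmf1 or the activators Psme3 and Psme4 was called.

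**Figure D4:**
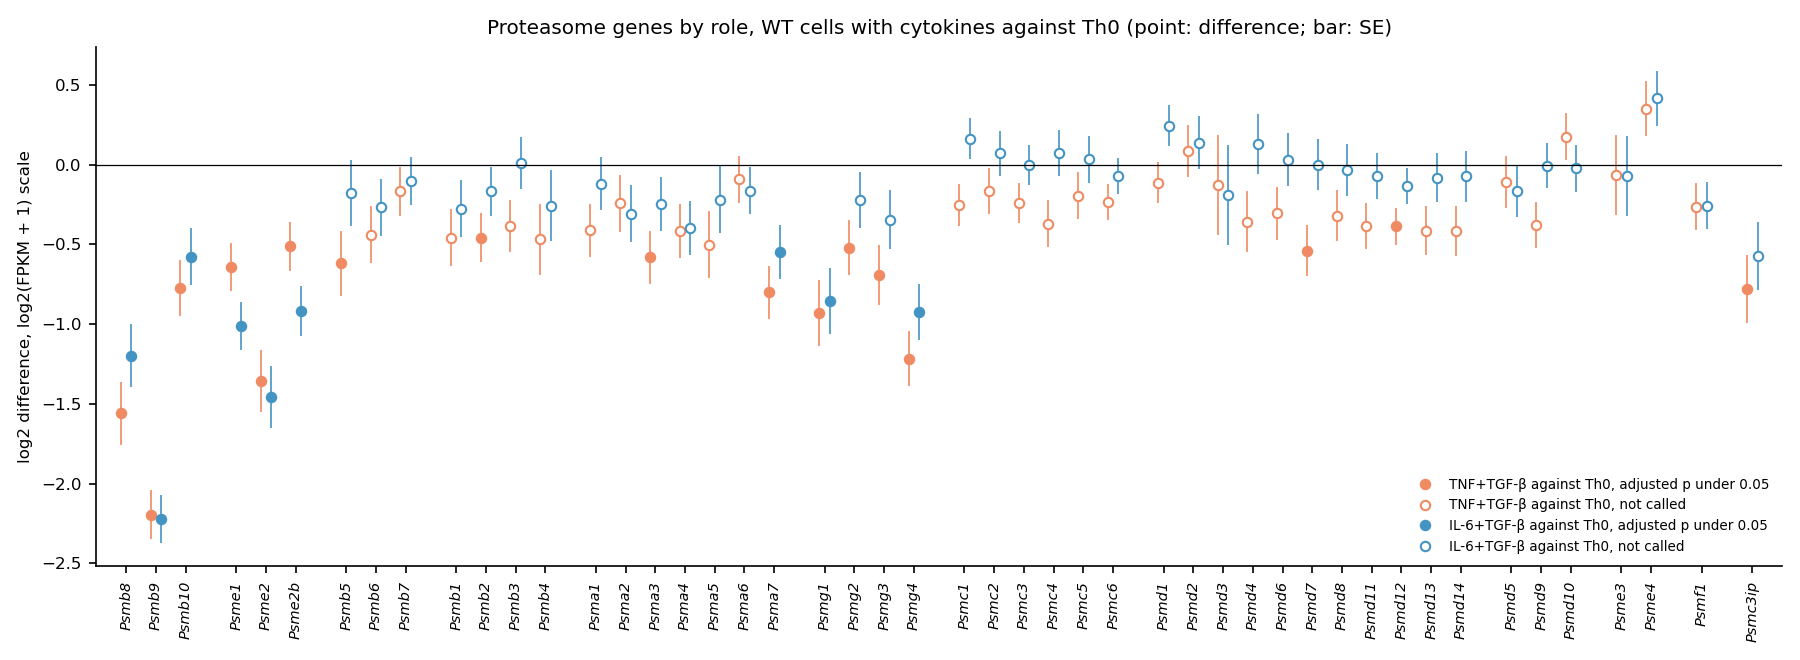
Log2 difference (point) and SE (bar) of every tested member, grouped by role, for WT TNF+TGF-β and WT IL-6+TGF-β, each against the same Th0 libraries. Filled points, called at adjusted p under 0.05, cluster in the immunoproteasome and core chaperone genes, and the ATPase genes (Psmc1 to Psmc6) are all open.

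The same question was asked of IL-6+TGF-β, the standard mix for Th17 cells. Here 9 of 48 members were lower than in Th0 (18.8%, against 9.15% of all tested genes) and 0 were higher (against 14.1%), with a median of -0.17 over the members and 0.04 over all tested genes. In 10 members all IL-6+TGF-β libraries lay below all Th0 libraries (against 16.8% of all tested genes), and in 1 above (against 22.4%). All 5 immunoproteasome genes were among the 9 called. The others were Psmg4 (-0.93 ± 0.17, adjusted p = 0.00219, limma), the copy Psme2b (-0.92 ± 0.15, adjusted p = 0.00098, limma), Psmg1 (-0.85 ± 0.21, adjusted p = 0.0107, limma) and Psma7 (-0.55 ± 0.17, adjusted p = 0.0345, limma). The last call was kept in 1 of 6 fits with 1 library left out. Of the 41 standard members 3 were lower (7.32%, below the 9.15% of all tested genes), and the 6 ATPase genes lay between -0.07 and 0.16. Without replicate 1 of IL-6+TGF-β, the library that stood apart, 16 members were lower and 1 was higher. Calls over all tested genes rose as well, from 1197 to 1638 lower and from 1844 to 2240 higher. The 7 additional falls among the members were those of Psma2, Psma3, Psma4 and Psma6 of the α ring, the structural Psmb1, the chaperone Psmg2 and Psmc3ip. Psma4 had the largest of these among the subunits (-0.61, adjusted p = 0.00472, limma), and the 1 rise was that of Psme4 (0.55, adjusted p = 0.0351, limma). Both cytokine pairs were set against the same Th0 libraries, so their lists are not independent.

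Markers of cell types moved in the same comparisons, some down and some up. Of the B cell markers, 7 of 8 were lower with TNF+TGF-β (against 13% of all tested genes) and 3 of 8 with IL-6+TGF-β (against 9.15%), each relative to Th0, with the summed levels given above. Of the 4 tested dendritic cell and MHC class II markers, 3 were lower with TNF+TGF-β (75%, against 13% of all tested genes) and 1 with IL-6+TGF-β (25%, against 9.15%). Itgax was higher with TNF+TGF-β (1.57 ± 0.32, adjusted p = 0.00312, limma). Of the 7 myeloid markers, 1 was lower with TNF+TGF-β (14.3%, near the 13% of all tested genes) and 3 with IL-6+TGF-β (42.9%, against 9.15%). Of the 2 CD8 markers, 2 were higher with TNF+TGF-β (against 18.7% of all tested genes) and 1, Cd8a, with IL-6+TGF-β (against 14.1%). Klrd1, the only NK cell marker tested, was higher with TNF+TGF-β (1.08 ± 0.30) and IL-6+TGF-β (3.33 ± 0.30). Of the 7 T cell markers, 2 were lower with each pair (28.6%, against 13% with TNF+TGF-β and 9.15% with IL-6+TGF-β over all tested genes) and 0 higher. These were Cd3d in each, Cd28 with TNF+TGF-β and Cd5 with IL-6+TGF-β. The RNA-weighted mean transcript length was 1.261 to 1.307 kilobases with TNF+TGF-β and 1.197 to 1.222 kilobases in Th0. With IL-6+TGF-β it was 1.205 kilobases in replicate 1, within the Th0 range, and 1.291 and 1.283 kilobases in the other libraries. Their part in the lower immunoproteasome levels was not tested.

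A list of 10 genes of the interferon response and of MHC class I was set beside the immunoproteasome. With TNF+TGF-β, 8 of 10 were lower (against 13% of all tested genes) and 0 higher than in Th0, with a median of -0.83 against 0.07 over all tested genes. With IL-6+TGF-β, 8 of 10 were lower (against 9.15%) and 0 higher as well, with a median of -0.97 against 0.04. Tap1 averaged 76.5 ± 4.3 FPKM with TNF+TGF-β, 68.7 ± 13.4 FPKM with IL-6+TGF-β and 287 ± 12.9 FPKM in Th0 (SD, n = 3 each), with log2 differences of -1.89 ± 0.14 for TNF+TGF-β (adjusted p = 1.76e-06) and -2.06 ± 0.14 for IL-6+TGF-β (adjusted p = 9.12e-07, limma). Irf1, the interferon-induced activator of these genes, was lower by log2 differences of -2.41 ± 0.22 with TNF+TGF-β and -2.05 ± 0.22 with IL-6+TGF-β. Nlrc5, the MHC class I transactivator, differed by -2.19 ± 0.19 with TNF+TGF-β and -1.90 ± 0.19 with IL-6+TGF-β. Tap2, the partner of Tap1, differed by -0.79 ± 0.10 with TNF+TGF-β and -0.99 ± 0.10 with IL-6+TGF-β. Each of these had an adjusted p of at most 0.000147 (limma).

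Of 26 genes whose proteins work with the proteasome, 4 were lower with TNF+TGF-β and 0 higher. The lower share (15.4%) was near that of all tested genes (13%). The 4 were Pomp (-0.64 ± 0.18, adjusted p = 0.0181), the maturation factor that completes the core, Uchl5 (-0.61 ± 0.14, adjusted p = 0.00672), a deubiquitinase of the cap, Txnl1 (-0.59 ± 0.13, adjusted p = 0.00571), a thioredoxin bound to the cap, and the ubiquitin receptor Adrm1 (-0.32 ± 0.10, adjusted p = 0.0287, limma). With IL-6+TGF-β 1 of 26 moved in each direction (3.85%, against 9.15% lower and 14.1% higher of all tested genes): Txnl1 was lower (-0.53 ± 0.13, adjusted p = 0.0127) and Uba1, the ubiquitin-activating enzyme, was higher (1.25 ± 0.32, adjusted p = 0.015, limma). Nfe2l1, the regulator of standard subunits, averaged 21.9 ± 0.9 FPKM with TNF+TGF-β, 16.0 ± 4.8 FPKM with IL-6+TGF-β and 16.99 ± 3.18 FPKM in Th0, and was not called in either comparison (adjusted p = 0.242 for TNF+TGF-β and 0.777 for IL-6+TGF-β, limma).

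Set directly against IL-6+TGF-β, TNF+TGF-β gave 1 lower member of 48 (2.08%, against 5.50% of all tested genes) and 0 higher (against 7.31%). In 12 members all TNF+TGF-β libraries lay below all IL-6+TGF-β libraries (against 15.1% of all tested genes), and in 1 above (against 16.9%). The 1 call was Psmd7, a lid subunit, with 172, 137 and 179 FPKM in TNF+TGF-β and 298, 204 and 215 FPKM in IL-6+TGF-β libraries (-0.54 ± 0.16, adjusted p = 0.0462, limma), lost in 5 of 6 fits with 1 library left out. None of the 5 immunoproteasome genes was called. Their log2 differences and 95% intervals were -0.36 (-0.79 to 0.07) for Psmb8, 0.03 (-0.30 to 0.35) for Psmb9, -0.20 (-0.59 to 0.19) for Psmb10, 0.37 (0.05 to 0.70) for Psme1 and 0.10 (-0.32 to 0.53) for Psme2. Without IL-6+TGF-β replicate 1, Psme1 was higher with TNF+TGF-β (0.56, adjusted p = 0.00729, limma) and no other member was called. Psme1 was also called higher under TPM scaling (0.44, adjusted p = 0.0166, limma). Of the 26 partner genes, 2 were lower with TNF+TGF-β (7.69%, against 5.50% of all tested genes) and 0 higher (against 7.31%). They were Nfe2l2 (-0.75 ± 0.17, adjusted p = 0.00979) and Adrm1 (-0.37 ± 0.10, adjusted p = 0.0313, limma). Of the 10 interferon and MHC class I genes 0 were called.

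The last comparison asks what the absence of TNF receptor 2 changed under TNF+TGF-β. In Tnfr2-/- cells 9 of 48 members were lower than in WT (18.8%, against 17.5% of all tested genes) and 1 was higher (2.08%, against 19.9%). The share of lower members was thus close to that of all genes, while the median lay at -0.22 over the members and 0.00 over all tested genes. In 15 members all Tnfr2-/- libraries lay below all WT libraries, against 24.0% of all tested genes, and in 3 members they lay above (against 26.8%). None of the 5 immunoproteasome genes was called. Their log2 differences were 0.24 (95% interval -0.19 to 0.67) for Psmb8, -0.05 (-0.38 to 0.28) for Psmb9, 0.17 (-0.21 to 0.56) for Psmb10, -0.03 (-0.35 to 0.30) for Psme1 and -0.02 (-0.45 to 0.40) for Psme2. All of these intervals lay between -0.45 and 0.67, which bounds the differences at this number of libraries without showing that the genotypes act alike.

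The lower members in Tnfr2-/- cells were spread over the standard proteasome. Psmd3, a lid subunit, had 113, 72.0 and 51.0 FPKM in Tnfr2-/- and 143, 144 and 150.3 FPKM in WT libraries, with no overlap but a wide spread in Tnfr2-/- (-0.95 ± 0.31, adjusted p = 0.0316, limma), and the call was kept in 1 of 6 fits with 1 library left out. Psme3, whose levels are given above, was 1.85-fold lower without overlap (-0.89 ± 0.25, adjusted p = 0.0159, limma). Psmd2, a scaffold of the cap base, had 201, 153 and 117 FPKM in Tnfr2-/- and 246, 227 and 247 FPKM in WT libraries (-0.65 ± 0.16, adjusted p = 0.00968, limma). In all 3 genes the library numbered 4 was the lowest of the Tnfr2-/- group. Wide spreads also occurred within WT groups, from 83.8 to 184 FPKM for Psmd3 in IL-6+TGF-β and from 114 to 215 FPKM for Psme3 in Th0. The remaining calls were Psma2 (-0.58 ± 0.18) and Psma6 (-0.48 ± 0.15) of the α ring, the catalytic subunit gene Psmb7 (-0.50 ± 0.15), the cap base gene Psmd1 (-0.38 ± 0.13), the ATPase gene Psmc6 (-0.31 ± 0.11) and Psmc3ip (-0.59 ± 0.21), which is no subunit. The 1 higher member was the copy Psme2b, with 69.7, 85.8 and 103 FPKM in Tnfr2-/- and 54.4, 51.1 and 51.7 FPKM in WT libraries (0.69 ± 0.15, adjusted p = 0.00469, limma), while Psme2 itself overlapped between the genotypes.

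**Figure D5:**
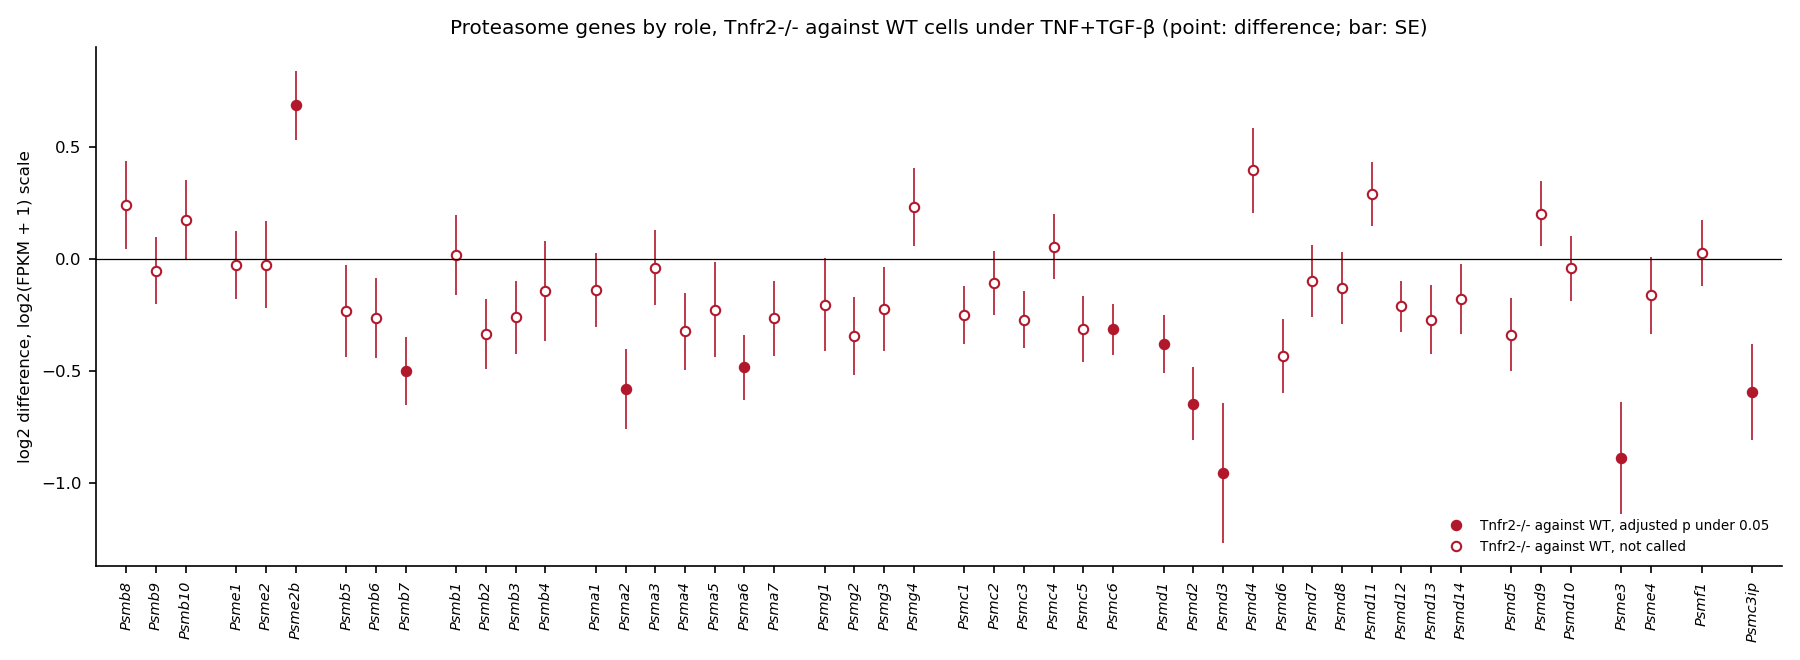
Log2 difference (point) and SE (bar) of every tested member between Tnfr2-/- and WT cells under TNF+TGF-β, grouped by role. The immunoproteasome genes on the left are open points near 0, and the filled points, apart from Psme2b at 0.69, lie between -0.95 and -0.31.

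These calls depended on the scaling and on single libraries. Under TPM scaling 22 members were lower, with a median of -0.34 over the members and -0.11 over all tested genes. Lower calls over all tested genes rose as well, from 2290 to 2850. Psmd2 and Psme2b kept their calls in all 6 fits with 1 library left out. Without the Tnfr2-/- library numbered 4 Psmd2 was the only lower member, and without WT TNF+TGF-β replicate 1 or 3 only 2 members were lower. In the same fits 1579, 1562 and 1657 of all tested genes were lower. Markers of other cells also separated the genotypes: 8 of 8 B cell markers and 5 of 7 myeloid markers were higher in Tnfr2-/- cells (against 19.9% of all tested genes). Of the 4 tested dendritic cell and MHC class II markers, 3 were higher (75%, against 19.9%) and Itgax was lower (-1.13 ± 0.32, adjusted p = 0.016, limma). The 2 CD8 markers summed to 29.5 to 78.9 FPKM in Tnfr2-/- and 307 to 358 FPKM in WT libraries. Klrd1, the only NK cell marker tested, was lower in Tnfr2-/- cells (-2.52 ± 0.30, adjusted p = 6.87e-05, limma). Of the 7 T cell markers, 2 were lower in Tnfr2-/- cells (28.6%, against 17.5% of all tested genes) and 1 was higher (14.3%, against 19.9%). Cd4 (-2.07 ± 0.55, adjusted p = 0.0117) and Cd5 (-0.55 ± 0.16, adjusted p = 0.0182) were lower, and Cd28 was higher (0.86 ± 0.12, adjusted p = 0.000179, limma). The part of these cells in the differences was not tested.

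Within a library, 3 of the 4 ratios of immune gene to counterpart were above those of all WT libraries in every Tnfr2-/- library. The log2 ratio of Psmb8 to Psmb5 was 0.24 ± 0.26 in Tnfr2-/- and -0.23 ± 0.05 in WT, and that of Psmb10 to Psmb7 was -0.58 ± 0.39 in Tnfr2-/- and -1.26 ± 0.14 in WT (SD, n = 3 each). For PA28αβ to Psme3 it was 3.40 ± 0.50 in Tnfr2-/- and 2.53 ± 0.06 in WT. These groups did not overlap, and the exact permutation p was 0.10 for each, the smallest possible (0.145 adjusted over 16 tests). For Psmb9 to Psmb6 the groups overlapped, at -2.18 ± 0.25 in Tnfr2-/- and -2.39 ± 0.07 in WT (exact permutation p = 0.20). The counterparts Psmb7 and Psme3 were lower in Tnfr2-/- cells while Psmb10, Psme1 and Psme2 were not called, and the library numbered 4 had the highest ratio of its group in all 4 pairs. Summed over all members, the 5 immunoproteasome genes took 14 to 17.6% of proteasome FPKM in Tnfr2-/-, 13 to 13.6% in WT TNF+TGF-β, 11 to 12.1% in WT IL-6+TGF-β and 20.6 to 23.3% in Th0 libraries.

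Among the proteasome partners, 4 of 26 were higher (15.4%, against 19.9% of all tested genes) and 7 lower (26.9%, against 17.5%) in Tnfr2-/- than in WT cells. The largest rise was that of Nfe2l2, the antioxidant regulator that can induce proteasome genes, at 61.8 ± 11.5 FPKM in Tnfr2-/- and 21.8 ± 4.4 FPKM in WT (1.47 ± 0.17, adjusted p = 5.31e-05, limma). The largest fall was that of Uba1, at 81.8 ± 37.5 FPKM in Tnfr2-/- and 217 ± 1.5 FPKM in WT (-1.49 ± 0.32, adjusted p = 0.00398, limma), with a wide spread in Tnfr2-/-. Nploc4, a cofactor of the segregase Vcp, was lower as well (-0.98 ± 0.29, adjusted p = 0.0195, limma). Of the 10 interferon and MHC class I genes, 2 were higher in Tnfr2-/- cells (20%, near the 19.9% of all tested genes). None was lower (against 17.5%). The 2 were Irf9, a transcription factor of the interferon response (1.09 ± 0.18, adjusted p = 0.000742, limma), and B2m, the light chain of MHC class I (0.51 ± 0.16, adjusted p = 0.0248, limma). Tap1, Tap2, Irf1, Nlrc5, Nfe2l1 and Pomp were not called between the genotypes.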

How the data were processed

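For the reads of the 12 libraries, the submitters' processing notes name STAR 2.5.4, RSEM 1.3.1 and Trimmomatic, the last without a version, and the build mm10. The deposited gene values were read as FPKM made by the authors, from their sums and transcript lengths, since the headers do not name the quantity. A count test, meant for estimated counts, was therefore not used. The third Tnfr2-/- column is numbered 4 while the labels run to 3, so it was used as a member of its group. Per the labels' protocols a SMARTer ultra low input kit and Nextera XT were used, which do not mark strand. The size of the smallest FPKM steps gave an approximate depth, and limits from it cover counting error only.

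Values were fitted as log2(FPKM + 1) with limma 3.58.1 (R 4.3.3), 1 mean per group over 12 libraries and a mean-variance trend, for genes that reached 1 FPKM in 3 or more libraries. This scale understates changes of low genes. P-values were adjusted over all 13082 tested genes per comparison. Alternatives covered the pseudocount, filter, scaling, trend, samples fitted, replicate block and leaving out each library. Ratios within a library used a pseudocount of 1 and a two-sided exact permutation test. The script was tested on simulated data. All members may be named, with those of the immunoproteasome and their counterparts given in every library, and otherwise the up to 2 called members per role and comparison with the largest change. Up to 3 called partner or interferon genes per comparison are named, besides Tap1, Tap2, Irf1, Nlrc5, Nfe2l1, Pomp and Tnfrsf1b, and 1 further gene of the interferon list is not reported here. Any other gene named with values was chosen after its values were seen. The members and lists were chosen with earlier results of these data known. Gene positions are from GENCODE M21 (GRCm38) and promoter sequences from RefSeq (GRCm38.p6).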

Additional observations from a re-analysis of the deposited data

How the results depend on the processing

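The 5 immunoproteasome genes kept their lower call against Th0 under all alternatives with TNF+TGF-β, and so did Psmb8, Psmb9, Psme1 and Psme2 with IL-6+TGF-β. No called member changed direction under any alternative. For TNF+TGF-β against Th0, the number of lower members was 17 as reported, 31 under median-ratio scaling and 26 under upper-quartile scaling. It was 34 when only the 2 groups were fitted, and 8 to 14 with 1 library left out. Lower calls over all tested genes numbered 1703, 2257, 1965, 2284 and 1101 to 1491 in the same order. Under TPM scaling 1 member (Psmd10) and 3277 of all tested genes were higher. The median of all genes was 0.223 under TPM scaling and 0.068 as reported in this comparison, and the members' median stayed below it, by -0.446 against -0.467 as reported. The share of higher genes among all called was 58.9%, 72.5% under TPM and 48.2% under median-ratio scaling. For IL-6+TGF-β against Th0, 7 to 16 members were lower and 0 to 1 higher with 1 library left out. Over all tested genes these fits gave 790 to 1638 lower and 1341 to 2240 higher. Between the 2 cytokine pairs (TNF over IL-6), 0 to 1 members were lower and 0 to 1 higher with 1 library left out. Over all tested genes 481 to 709 were lower and 654 to 859 higher. Between these pairs, 0 members were lower with no filter, with no trend and when only the 2 groups were fitted. Over all tested genes 705, 693 and 613 were lower there. Under TPM or median-ratio scaling 3 members were lower, with 650 and 808 of all tested genes. Under TPM 2 members and 1009 of all tested genes were higher. For Tnfr2-/- against WT, 22 members were lower under TPM scaling, where the median of all genes was -0.109, and 1 to 8 with 1 library left out. Over all tested genes 2850 were lower under TPM scaling, and 1562 to 2667 with 1 library left out. The higher share of all calls was 53.2%, and 42.5% under TPM. The cause of these shifts was not tested.

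Replicate numbers did not pair the libraries across all groups. Of 15 same-number pairs, 5 had a correlation of deviations over 0.1 (median 0.051), as had 9 of 39 others (median -0.032). Those 5 were all between WT groups. There same-number pairs ran from -0.029 to 0.344 and different-number pairs from -0.34 to 0.181. Same-number pairs with a Tnfr2-/- library ran from -0.284 to 0.082. Whether WT libraries of the same number share a source was not tested. With the number as a replicate block, 2 members and 750 of all tested genes were lower between the 2 cytokine pairs. For Tnfr2-/- against WT 0 members and 1353 of all tested genes were lower. To that fit the library numbered 4 adds nothing because it has no partner.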
